A study of Macaca fascicularis with 11 samples.

Results

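NRN1 (ENSMFAG00000007750) and PCYT1B (ENSMFAG00000002678) were 2 of the 19367 genes counted in single cells of cynomolgus monkey (Macaca fascicularis) embryos, and were chosen because their RNA was higher in the amnion of ISL1 mutant embryos at Day 14. That contrast is therefore described here without a test, and tests are given only for other cell types, days and contrasts. The embryos were blastocysts grown in culture and dissociated at Day 10, Day 12 or Day 14. Each droplet library pooled the cells of 1 to 3 embryos of 1 genotype. Wild-type embryos (12 in all) gave 2 libraries per day. Mutant embryos (11 in all) gave 1 library at Day 10, from 3 embryos, and 2 each at Day 12 and Day 14, replicate 1 from 3 embryos and replicate 2 from a single embryo. The mutants had been injected at the zygote stage with Cas9 and guide RNAs against ISL1, which encodes a LIM-homeodomain transcription factor of the amnion, are called hypomorphic, and each carried a mixture of edits. They are thus not a clonal knockout.

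Neuritin, the product of NRN1, is a small protein held to the outer cell surface by a glycosylphosphatidylinositol (GPI) anchor, best known from neurons, where activity induces it and it promotes the outgrowth and stabilisation of neurites and synapses. PCYT1B encodes the beta isoform of CTP:phosphocholine cytidylyl-transferase, which joins phosphocholine to CTP. That step is rate-limiting in the CDP-choline pathway, the main route to phosphatidylcholine in most cells, and is more often carried by the alpha isoform, PCYT1A. The amnion is the thin epithelium that closes the amniotic cavity over the epiblast, and in primates it arises from the epiblast about the time of implantation.

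A count here is a unique molecular identifier (UMI), a tag that marks 1 captured transcript, and a level is CPM, the UMIs of a gene per 1000000 UMIs of all genes, of the summed cells of a type in a library. Cells were grouped by clustering without the 2 genes, and types named from marker lists carry the ending -like. A library held between 325 and 9625 cells and between 36654977 and 164808415 UMIs, with a median per cell between 10916 and 142180 UMIs. Of the barcodes, 124 occurred in more than 1 library. Libraries of the same group were not copies of each other, since their gene counts differed by a chi-square of at least 125 per degree of freedom. At Day 14, amnion-like cells numbered 37 and 9 in the wild-type libraries (replicates 1 and 2) and 239 and 48 in the mutant ones.

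At Day 14 the amnion-like cells carried the amnion genes that had been kept out of the clustering. ISL1 was at 152 and 211 CPM in the wild-type libraries and at 149 and 185 CPM in the mutant libraries, against 0.831 to 1.10 CPM in the trophoblast-like cells of the same 4 libraries. WNT6, a secreted ligand, was at 76.1 and 57.5 CPM in wild type and at 41.5 and 72.7 CPM in the mutant. GABRP, a GABA receptor subunit, was at 81.5 and 12.8 CPM in wild type and at 76.8 and 74.1 CPM in the mutant, and HEY1, a transcriptional repressor of the Notch pathway, at 219 and 63.9 CPM and at 113 and 414 CPM. BMP4, a secreted ligand that had also been kept out of the clustering and is named after its values were seen, was at 367 and 524 CPM in wild type and at 165 and 180 CPM in the mutant. The genotypes overlapped for ISL1, whose 3′ counts can include transcripts of the edited gene and therefore do not check the genotype labels.

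NRN1 was nearly absent from wild-type amnion-like cells at Day 14 and plentiful in the mutant ones. The wild-type libraries held 2 and 0 UMIs of NRN1 in these cells, or 1.81 and 0 CPM, where a count of 0 allows up to 19.2 CPM in the smaller library. The mutant libraries held 63 and 92 UMIs, or 38.4 and 126 CPM. The mutant libraries stood far apart from each other (mean 82.3 ± 62.1 CPM, SD, n = 2 libraries, against 0.906 ± 1.28 CPM in wild type). Over the summed cells the ratio of mutant to wild type was 41.2, with a 95% interval from 11.2 to 344 that covers counting error only. Since the genes were chosen for this contrast, the interval describes the counts and is no test.

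PCYT1B showed the same order with a closer pair of mutant libraries. No UMI of PCYT1B was found in the 46 wild-type amnion-like cells of Day 14, whose summed UMIs allow up to 2.38 CPM for a count of 0. The mutant libraries held 50 and 26 UMIs, or 30.5 and 35.7 CPM (mean 33.1 ± 3.66 CPM, SD, n = 2 libraries). The level was at least 13.5-fold higher in the summed mutant cells than that limit. Among all sums of a type in a library with at least 20 cells, 48 in number, the 2 mutant Day 14 amnion-like sums held rank 1 and 2 for both genes. Rank 3 went to Epi-like cells of the first mutant Day 14 library for NRN1 (13.1 CPM) and endoderm-like cells of the second mutant Day 12 library for PCYT1B (11.1 CPM).

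**Figure D1:**
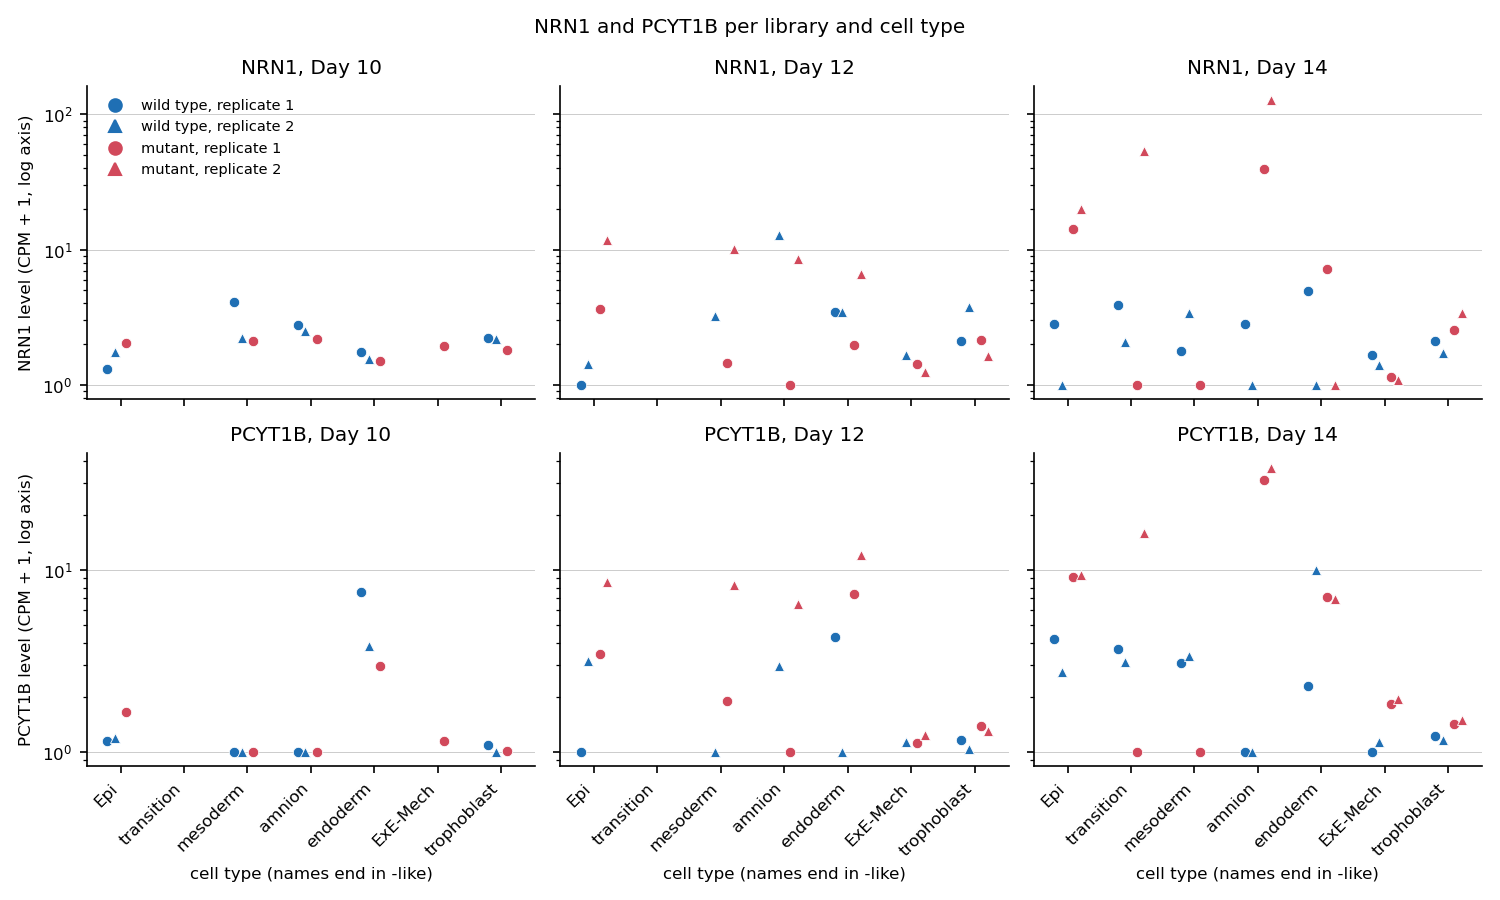
Levels of NRN1 (top) and PCYT1B (bottom) as CPM + 1 on a log axis, for each cell type (x axis) at Day 10 (left), Day 12 and Day 14 (right), 1 point for each library with at least 5 cells of the type, blue for wild type and red for mutant. At Day 14 the mutant amnion-like points lie at 38.4 and 126 CPM for NRN1 and at 30.5 and 35.7 CPM for PCYT1B, above every other point of their panels except that transition-like cells of 1 mutant library (5 cells) reach 52.6 CPM of NRN1.

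The amnion-like cells of the genotypes came largely from different clusters, which qualifies the comparison. The class joins AM-1-like cells, named from markers such as TFAP2C and CDO1, and AM-2-like cells, named from markers such as CDH3 and TFAP2A. In wild type 34 of 37 and 9 of 9 cells were AM-1-like, and in the mutant 27 of 239 and 20 of 48. In AM-1-like cells the 8 AM-1 markers summed to 1316 and 1660 CPM in wild type and to 1285 and 975 CPM in the mutant. The 9 AM-2 markers summed there to 1722 and 524 CPM and to 1331 and 1427 CPM. The AM-2 sum was thus the higher one in all of these libraries but the second wild-type one. GABRP was at 67.8 and 12.8 CPM in wild-type and at 4.62 and 41.4 CPM in mutant AM-1-like cells. Whether the name marks like cells in both genotypes was not tested. Within AM-1-like cells alone, the second mutant library held 171 CPM of NRN1 (58 UMIs) and 38.4 CPM of PCYT1B (13 UMIs), as against 1.03 and 0 CPM of NRN1 and none of PCYT1B in wild type. The first mutant library held 1 UMI of each gene there, 4.62 CPM, so within AM-1-like cells the contrast rests on the library of a single embryo. In AM-2-like cells the mutant libraries were at 43.6 and 87.1 CPM for NRN1 and at 34.4 and 33.3 CPM for PCYT1B. Only 3 wild-type cells took that name and can be set against them, with 1 UMI of NRN1 and none of PCYT1B.

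Per cell, NRN1 was detected in 37 of 239 (15.5%, 95% exact interval 11.1 to 20.7%) and in 28 of 48 mutant amnion-like cells (58.3%, 43.2 to 72.4%). In wild type it was detected in 2 of 37 cells (5.41%, 0.661 to 18.2%) and in 0 of 9, which allows up to 33.3%. PCYT1B was detected in 39 of 239 (16.3%, 11.9 to 21.6%) and 18 of 48 mutant cells (37.5%, 23.95 to 52.6%), and in 0 of 37 wild-type cells, which allows up to 8.11%, and 0 of 9. The mutant cells were the shallower ones, with medians of 4827 and 12644.5 UMIs per cell against 28624 and 16320 in wild type. With every cell thinned to 5000 UMIs and shallower cells left out, NRN1 remained in 14 of 109 (12.8%) and 13 of 46 (28.3%) mutant cells and PCYT1B in 12 of 109 (11.01%) and 7 of 46 (15.2%). Neither gene remained in any of the 36 and 9 wild-type cells, which allows up to 8.33% and 33.3%. For the background that free RNA can give, the share was lowest among the most numerous types at 0.121% and 0.188% for NRN1 in mutant ExE-Mech-like cells (median 10261 and 18972.5 UMIs), and 0.505% and 1.17% for PCYT1B in their trophoblast-like cells (median 11344 and 27186.5 UMIs).

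**Figure D2:**
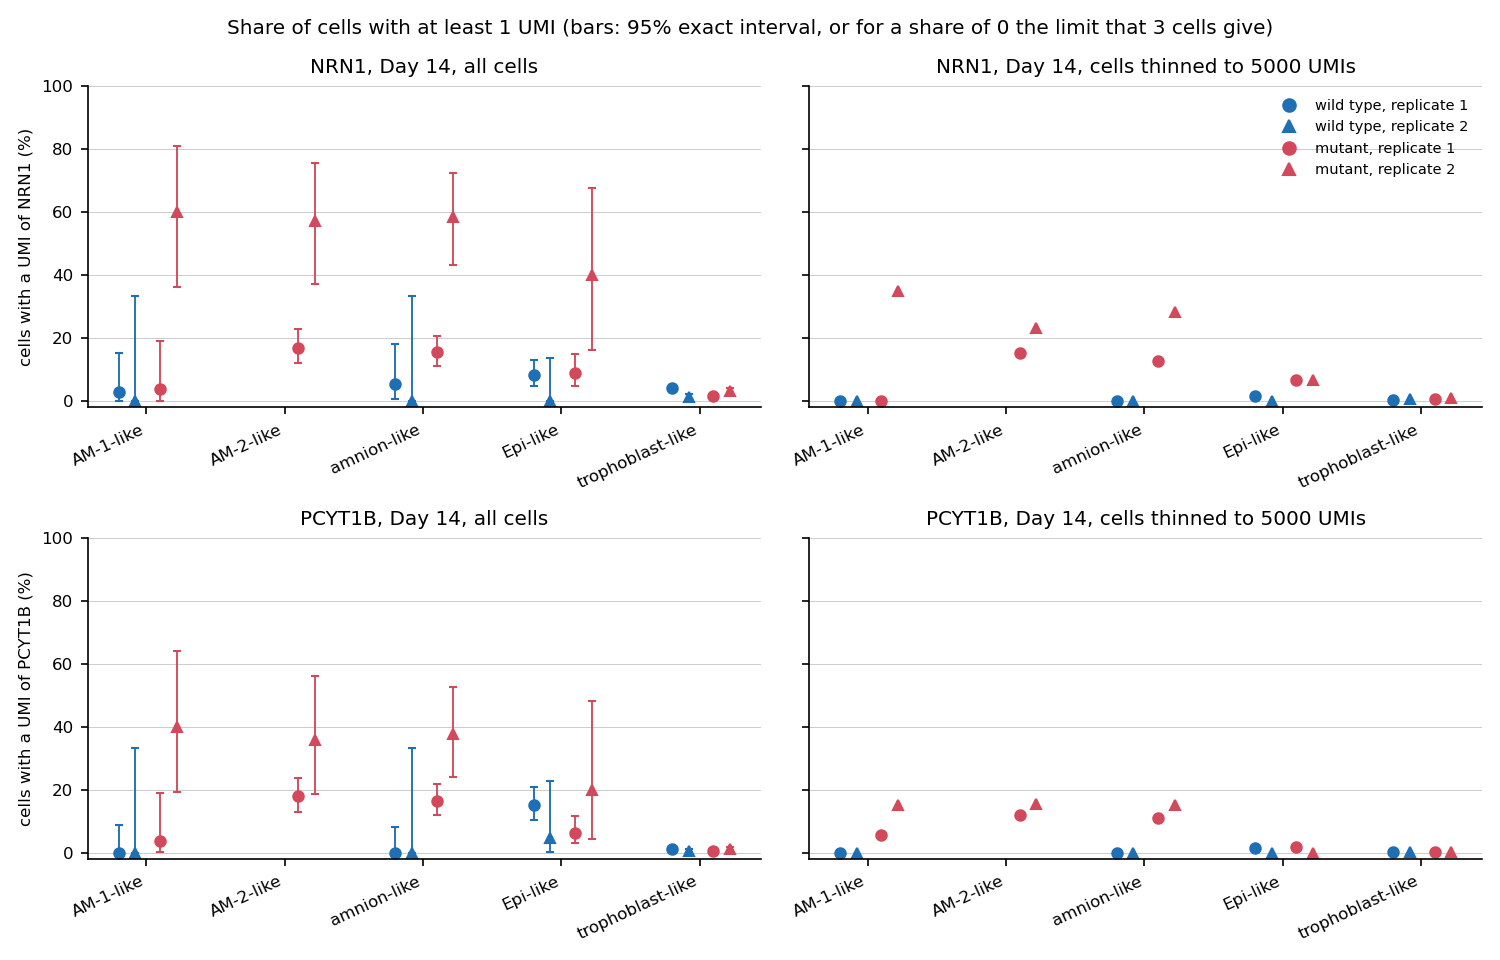
Share of Day 14 cells with at least 1 UMI of NRN1 (top) or PCYT1B (bottom), in percent, by cell type and library, in all cells (left, bars as 95% exact intervals, or the limit that 3 cells give for a share of 0) and in cells thinned to 5000 UMIs (right). After thinning, the amnion-like points of the mutant libraries lie at 12.8% and 28.3% for NRN1 and at 11.01% and 15.2% for PCYT1B, and both wild-type points at 0.

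The UMIs were spread over many mutant cells. The cell with most NRN1 held 9 of 63 UMIs in the first mutant library and 13 of 92 in the second, and without that cell the levels were 33.2 and 114 CPM. For PCYT1B the top cells held 4 of 50 and 3 of 26 UMIs, and the levels without them were 28.4 and 32.9 CPM. Both genes were found together in 11 of 239 and 11 of 48 mutant amnion-like cells, NRN1 alone in 26 and 17, and PCYT1B alone in 28 and 7.

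Trophoblast and ExE-Mech markers summed to more, and epiblast markers to less, in the mutant amnion-like cells than in the wild-type ones. The part of the trophoblast, ExE-Mech and epiblast markers in the result was not tested. The 8 trophoblast markers summed to 1790 and 716 CPM there and to 119 and 95.8 CPM in wild type, against 12524 to 22233 CPM in the trophoblast-like cells of the same libraries. XAGE3 was at 729 and 472 CPM in the mutant and at 20.8 and 6.39 CPM in wild type, and CGA, the alpha subunit of chorionic gonadotropin, at 738 and 106 CPM and at 58.0 and 6.39 CPM. INSL4 and PGF, a placental growth factor, overlapped between the genotypes, PGF at 18.3 and 13.7 CPM in the mutant and at 2.72 and 31.9 CPM in wild type. Of the 8 markers only HSD3B1 was at 0 in any of these libraries, the second wild-type one. The 8 ExE-Mech markers summed to 709 and 578 CPM in the mutant, with none at 0, and to 222 and 102 CPM in wild type, with 2 and 7 of them at 0. The 8 Epi markers, such as NANOG, summed to 48.2 and 100.1 CPM in the mutant and to 421 and 1169 CPM in wild type. Trophoblast-like and ExE-Mech-like cells held little of either gene, with 1.52 and 2.37 CPM of NRN1 and 0.419 and 0.501 CPM of PCYT1B in mutant trophoblast-like cells and at most 0.139 and 0.945 CPM in mutant ExE-Mech-like cells. Mutant Epi-like cells held more, 13.1 and 19.02 CPM of NRN1 and 8.11 and 8.45 CPM of PCYT1B. In the mutant amnion-like cells with no UMI of any trophoblast marker, 80 and 15 in number, NRN1 stood at 46.8 and 137 CPM and PCYT1B at 36.2 and 42.5 CPM. These cells, with medians of 4578 and 12467 UMIs, are a described subset and no test of cell identity. The subtraction of free RNA by the authors removed no UMI of either gene from the amnion-like cells of Day 14. Uncorrected counts, another cluster resolution, another neighbour graph and the removal of cells with most UMIs left the mutant libraries at 32.8 CPM or more for NRN1 and at 18.2 CPM or more for PCYT1B, with at most 1.81 CPM and no UMI in wild type.

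**Figure D3:**
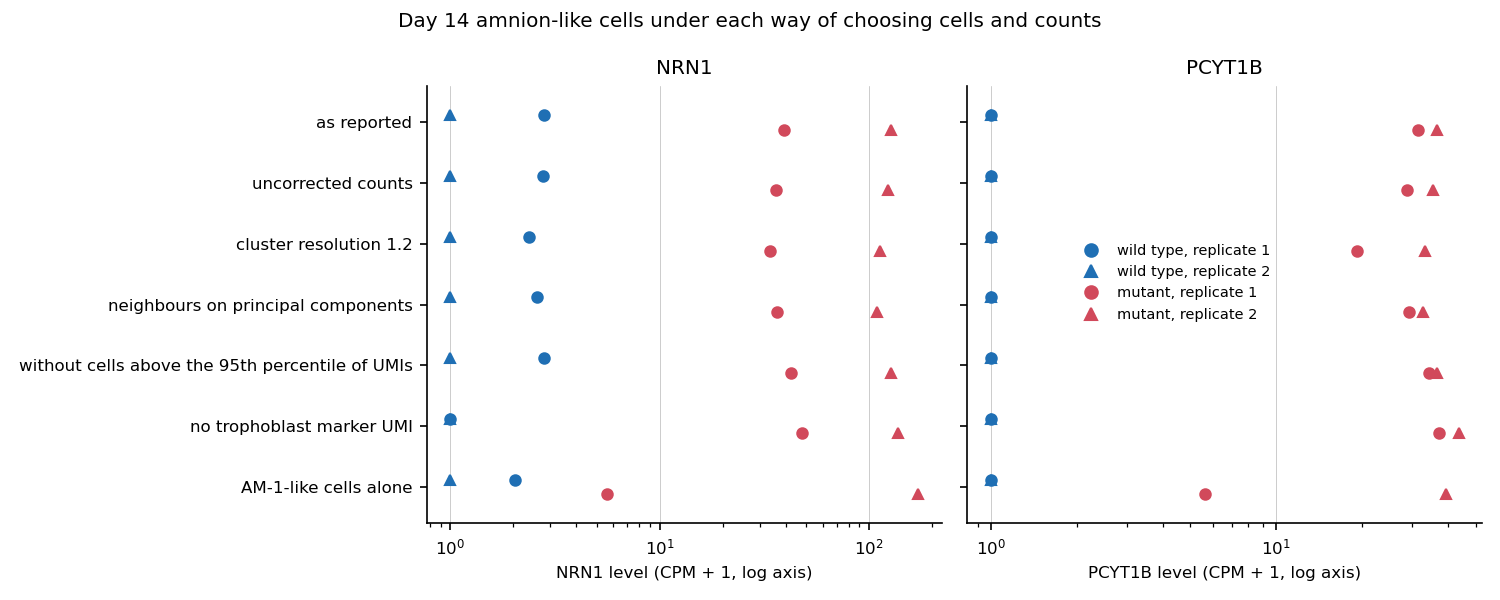
Levels of NRN1 (left) and PCYT1B (right) in Day 14 amnion-like cells as CPM + 1 on a log axis, for each library under each way of choosing the cells and counts. In every row but the last the red mutant points lie far right of the blue wild-type points, and among AM-1-like cells alone the first mutant library falls to 4.62 CPM for both genes.

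In the mutant Day 14 libraries the amnion-like cells held a larger share of the NRN1 and PCYT1B UMIs than of all UMIs. They made up 2.48% and 1.24% of the cells of the mutant libraries and gave 1.41% and 0.677% of all UMIs, and they held 25.8% and 28.1% of the NRN1 UMIs and 29.1% and 17.0% of those of PCYT1B. Most NRN1 UMIs of a single type lay in trophoblast-like cells, 47.5% and 55.0%, which gave 65.7% and 70.5% of all UMIs. Those cells held 18.6% and 24.8% of the PCYT1B UMIs. Cells of unnamed clusters held 14.3% and 11.3% of the NRN1 UMIs and 27.9% and 39.2% of those of PCYT1B, with 5.82% and 7.40% of all UMIs. At cluster resolution 1.2 the amnion-like cells of the first mutant library fell to 69, which held 18 of its 244 NRN1 UMIs and 10 of its 172 PCYT1B UMIs. Those of the second, 51 cells, held 101 of 327 and 29 of 153. In the wild-type libraries amnion-like cells gave 0.670% and 0.427% of all UMIs. They held 1.00% and 0% of the NRN1 UMIs (2 of 200 and 0 of 25) and none of those of PCYT1B (0 of 112 and 0 of 14). Over the whole libraries NRN1 was at 1.21 and 0.682 CPM in wild type and at 2.10 and 3.04 CPM in the mutant, and PCYT1B at 0.680 and 0.382 CPM and at 1.48 and 1.42 CPM.

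**Figure D4:**
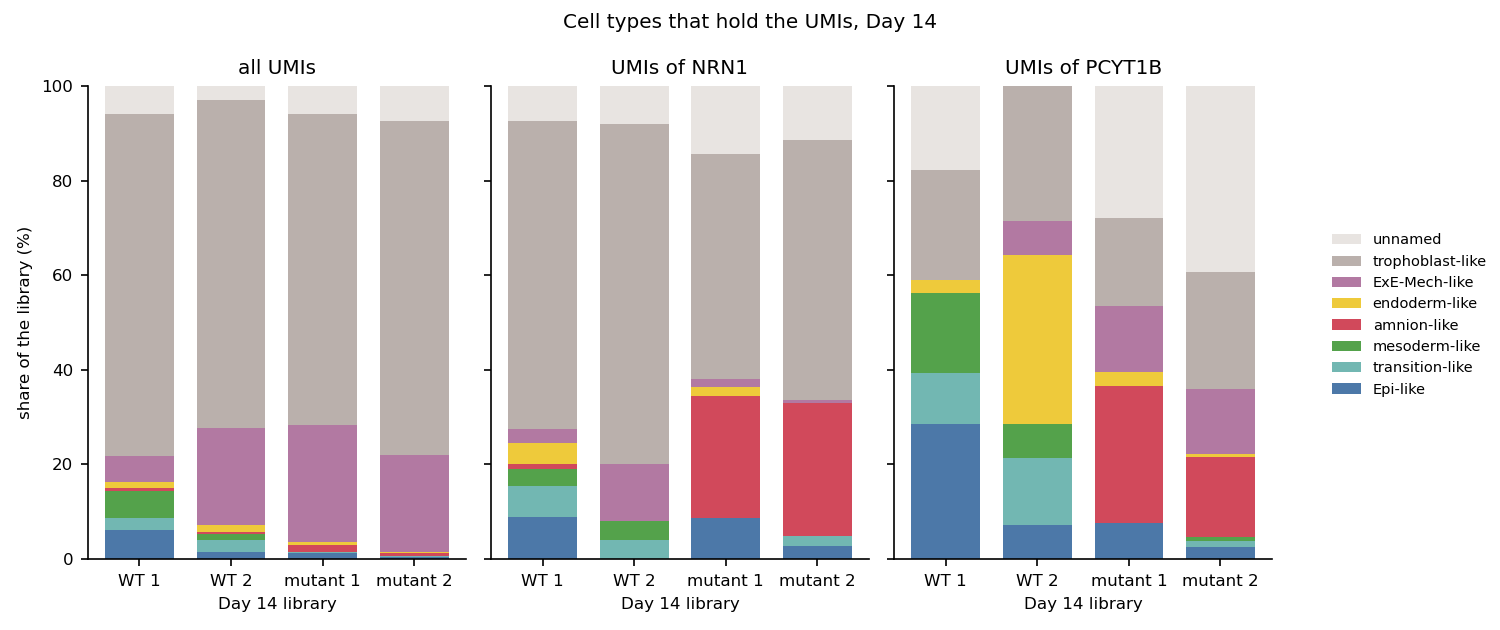
Stacked bars of the share of each Day 14 library (percent) that each cell type gives to all UMIs (left), to NRN1 UMIs (middle) and to PCYT1B UMIs (right). The red amnion-like segment takes 1.41% and 0.677% of all UMIs in the mutant libraries but 25.8% and 28.1% of NRN1 and 29.1% and 17.0% of PCYT1B.

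Outside the amnion, the mutant and wild-type libraries of Day 14 were compared with edgeR on UMIs summed per type and library. Neither gene passed a false discovery rate of 1% in any type: of 7 tests of the 2 genes 0 passed, 3 had an unadjusted p under 0.05 and DESeq2 called 0. The share of all genes called was 0.0291% in Epi-like cells and 0% in transition-like, endoderm-like, ExE-Mech-like and trophoblast-like cells, so the members' edgeR count stands beside a background of nearly no calls. An unadjusted p under 0.05 was found for 12.5% of all genes in Epi-like, 7.01% in endoderm-like, 16.8% in ExE-Mech-like and 13.0% in trophoblast-like cells. DESeq2 called 53, 17, 213 and 240 genes in these types. Of these 7 tests the smallest unadjusted p was that of NRN1 in Epi-like cells, the type of the undifferentiated epiblast (0.00243, edgeR). NRN1 stood at 1.80 and 0 CPM in wild type (18 and 0 UMIs) and at 13.1 and 19.02 CPM in the mutant (21 and 9 UMIs). A count of 0 allows up to 5.30 CPM in the 22 cells of the second wild-type library. The log2 fold change was 3.33 ± 0.89 (SE), with an adjusted p of 0.135 by edgeR. Without the filter on low counts the adjusted p was 0.00255 by edgeR, a setting for which the share of all genes called was not counted in this type. PCYT1B in the same cells was at 3.21 and 1.77 CPM in wild type and at 8.11 and 8.45 CPM in the mutant, a log2 fold change of 1.53 ± 0.89 with an adjusted p of 0.516 by edgeR. In Epi-like cells both genes passed the filter on low counts only through mutant sums, so the p-values of the filtered fit are a description there.

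In ExE-Mech-like cells, the extraembryonic mesenchyme, both genes were low. PCYT1B was at 0 and 0.132 CPM in wild type and at 0.836 and 0.945 CPM in the mutant (log2 fold change 3.78 ± 1.12, edgeR adjusted p = 0.218), and NRN1 at 0.665 and 0.397 CPM and at 0.139 and 0.0900 CPM (log2 fold change -2.09 ± 0.84, edgeR adjusted p = 0.283). The direction of NRN1 there turned at cluster resolution 1.2 (0.74). In ExE-Mech-like cells, too, both genes passed the filter on low counts only through mutant sums, so these p-values are a description. In trophoblast-like cells, which form the bulk of every library, NRN1 was at 1.09 and 0.708 CPM in wild type and at 1.52 and 2.37 CPM in the mutant (log2 fold change 1.10 ± 0.53, edgeR adjusted p = 0.428, 95% interval -0.12 to 2.31). PCYT1B was at 0.218 and 0.157 CPM and at 0.419 and 0.501 CPM (log2 fold change 1.24 ± 0.91, edgeR adjusted p = 0.587). Transition-like cells numbered 7 and 5 in the mutant libraries, and too few counts of either gene remained there for a test. NRN1 was at 2.91 and 1.07 CPM in wild-type transition-like cells and at 0 and 52.6 CPM (7 UMIs) in the mutant.

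At Day 12, a day that the rule for choosing the genes did not use, neither gene was higher in the amnion-like cells of both mutant libraries than in the wild-type ones. NRN1 was at 11.9 CPM in the wild-type library that had these cells (19 cells, 6 UMIs, 4 of them in 1 cell) and at 0 and 7.55 CPM in the mutant libraries. PCYT1B was at 1.98 CPM (1 UMI) in wild type and at 0 and 5.53 CPM in the mutant. These levels are a description. The fit has 1 wild-type library at this day and takes its spread from groups that include the mutant Day 14 libraries, for which the genes were chosen, and PCYT1B, at most at 5.53 CPM in the other amnion-like sums, passed the filter on low counts through them. The naming is also weaker than at Day 14 on the Epi markers. The 8 Epi markers summed to 2350 CPM in wild type and to 2662 and 1151 CPM in the mutant. The 8 AM-1 markers summed to 1405, 1279 and 1467 CPM in the same order. ISL1 was at 135 CPM in wild type and at 32.1 and 120 CPM in the mutant. GABRP had no UMI in the wild-type and the first mutant library and was at 5.03 CPM in the second mutant one. The paper describes GABRP as a late amnion gene, so its absence is not held against the name.

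In the other types of Day 12 neither gene passed the test. Over all types of that day 0 of 10 tests passed with edgeR, 1 had an unadjusted p under 0.05, and DESeq2 called 0. Of the 10, 2 are those of amnion-like cells, from which nothing is read. In Epi-like, mesoderm-like and ExE-Mech-like cells the genes tested passed the filter on low counts only through mutant sums. The p-values of those filtered fits are therefore a description. Mesoderm-like and ExE-Mech-like cells, like amnion-like ones, came from 1 wild-type library, whose spread was again taken from the other groups. The share of all genes called was 0.0194% in Epi-like, 0.0327% in mesoderm-like, 0.0111% in amnion-like, 0.00662% in trophoblast-like and 0% in endoderm-like and ExE-Mech-like cells. Between 6.51% (endoderm-like) and 14.7% (trophoblast-like) of all genes had an unadjusted p under 0.05, and DESeq2 called between 4 and 259 genes in these types. Epi-like cells gave the widest gap for NRN1, with 0 and 0.434 CPM in wild type (0 and 1 UMI in 14 and 56 cells) and 2.64 and 10.8 CPM in the mutant (15 and 17 UMIs). The log2 fold change was 4.52 ± 1.29, with an adjusted p of 0.235 by edgeR and of 0.00610 without the filter on low counts. For the setting without the filter the share of all genes called was again not counted in this type. PCYT1B in these cells was at 0 and 2.17 CPM and at 2.47 and 7.63 CPM (log2 fold change 1.94 ± 0.99, edgeR adjusted p = 0.524). The second mutant library of Day 12, made from a single embryo, had the highest level of NRN1 among Day 12 libraries in Epi-like, mesoderm-like (9.05 CPM) and endoderm-like cells (5.55 CPM, from only 2 UMIs in 25 cells), but the lowest in trophoblast-like cells (0.626 CPM).

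At Day 10 the cells called amnion-like by the naming rule held few UMIs of either gene. Their markers go against the name in wild type, where the 8 Epi markers summed to 4935 and 3322 CPM and the 8 AM-1 markers to 555 and 546 CPM, and ISL1 was at 21.2 and 5.76 CPM, the latter below the 11.8 CPM of endoderm-like cells of that library. In the mutant library these values were 2813, 1241 and 88.5 CPM. NRN1 was at 1.77 and 1.51 CPM in wild type (8 and 26 cells) and at 1.196 CPM in the mutant (19 cells), and PCYT1B had no UMI in any of the 3 libraries, where a count of 0 allows up to 5.30, 0.909 and 1.79 CPM. In wild-type trophoblast-like cells, the most numerous type at every day, neither gene passed the test of Day 14 against Day 10 (edgeR), for which 1.74% of all genes were called. NRN1 was at 1.203 and 1.18 CPM at Day 10 and at 1.09 and 0.708 CPM at Day 14 (log2 fold change -0.37 ± 0.54, adjusted p = 0.716), and PCYT1B at 0.0925 and 0 CPM and at 0.218 and 0.157 CPM (2.16 ± 1.16, adjusted p = 0.281). Of these 2 tests 0 had an unadjusted p under 0.05, and DESeq2 called 0, while 26.2% of all genes had such a p and DESeq2 called 1828. The mutant effect at Day 14 minus that at Day 12 was tested in the types other than amnion-like. Of 7 tests 0 passed with edgeR, where no gene at all was called (0%), 1 had an unadjusted p under 0.05, and DESeq2 called 0. Of all genes, between 4.67% (endoderm-like) and 9.12% (ExE-Mech-like) had such a p, and DESeq2 called between 5 and 76. The smallest unadjusted p of the 7 tests was that of NRN1 in trophoblast-like cells, 0.0161 by edgeR, where the effects differed by 2.25 ± 0.75 (log2, edgeR adjusted p = 0.494).

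The levels among the other cell types are given for each gene in turn, and the difference between the genes was not tested. PCYT1B was higher in endoderm-like and Epi-like cells than in trophoblast-like cells at Day 14. Within libraries, with the library as a block, it was higher in endoderm-like than in trophoblast-like cells by 3.88 ± 0.80 (log2, SE) at Day 14 (edgeR adjusted p = 0.000317). At Day 12 the fit gave 4.25 ± 0.77 (edgeR adjusted p = 0.000157). Of all genes, 18.4% at Day 14 and 19.4% at Day 12 were called higher in these comparisons. The Day 14 fit over types also held the mutant amnion-like sums for which the genes were chosen, so its results are not free of them. PCYT1B passed the filter on low counts in that fit mainly through mutant sums. In endoderm-like cells PCYT1B was at 6.62 and 2.81 CPM (wild type) and 1.98 CPM (mutant) at Day 10, at 3.27 and 0 CPM and at 6.39 and 11.1 CPM at Day 12, and at 1.32 and 9.03 CPM and at 6.14 and 5.93 CPM at Day 14. The trophoblast-like level was 0.501 CPM or lower in all 11 libraries. At Day 10 the fit gave 6.37 ± 1.06 (edgeR adjusted p = 0.00151, and 0.000467 without the filter on low counts, 14.4% of all genes called higher), a call that stood with none of its 3 libraries left out and is not relied on. It was lost without the second wild-type one (5.93, edgeR adjusted p = 0.0185), and without either of the others PCYT1B did not pass the filter on low counts, 18 of its UMIs lying in endoderm-like cells of the first wild-type library. At Day 12 neither gene passed that filter without the second mutant library, so no comparison of types at Day 12 was tested without it. The Day 12 calls against trophoblast-like cells are therefore not relied on either.

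PCYT1B was also higher in Epi-like than in trophoblast-like cells at Day 14, by 4.01 ± 0.63 (edgeR adjusted p = 8.0e-06, 19.8% of all genes called higher). At Day 12 the fit gave 3.50 ± 0.71 (edgeR adjusted p = 0.000310, 27.0% called higher), a call that is not relied on. At Day 10 the difference was 3.22 ± 1.06 with an adjusted p of 0.0318 by edgeR. Amnion-like and mesoderm-like cells of Day 12 differed by 2.94 ± 0.96 and 2.65 ± 0.92 (edgeR adjusted p = 0.0171 and 0.0208), which DESeq2 alone called. DESeq2 called 4273 and 5139 of all 10739 genes in either direction there, and edgeR called 18.7% and 22.4% of all genes higher. In transition-like and mesoderm-like cells of Day 14 it was higher by 3.82 ± 0.80 and 3.46 ± 0.81 (edgeR adjusted p = 0.000311 and 0.00120, 16.3% and 15.4% of all genes called higher). Both of these last calls were lost without the first wild-type library, where the adjusted p was 0.0131 and 0.334 by edgeR. The transition-like difference itself changed little in size with any library left out. For mesoderm-like cells, that library held 193 wild-type cells against 18 in the other. A cluster resolution of 1.2 also ended both calls (edgeR adjusted p = 0.0306 and 0.0110), and neighbours on principal components ended that of mesoderm-like cells (0.0286). In ExE-Mech-like cells, where at Day 10 8.42% of all genes were called and 4.99% called higher, PCYT1B did not pass the test at any day, and at Day 10 these cells came from 1 library, with 59 cells and 1 UMI of PCYT1B. The differences were 1.96 ± 2.10, -1.07 ± 0.88 and 0.38 ± 0.61 in the order of the days.

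NRN1 passed the test in no type against trophoblast-like cells at Day 12 or Day 14, and its counts were too low for the test at Day 10. The Day 14 fit also held the mutant amnion-like sums for which the genes were chosen, so its results are not free of them. NRN1 passed the filter on low counts in that fit only through mutant sums. Its highest wild-type sum of Day 14, in endoderm-like cells, was at 3.95 CPM. The Day 14 p-values of NRN1 are therefore a description. Of 10 tests 0 passed with edgeR, 4 had an unadjusted p under 0.05, and DESeq2 called 0, while 54.4%, 44.1%, 36.7%, 41.7% and 37.9% of all genes were called in either direction in Epi-like, mesoderm-like, amnion-like, endoderm-like and ExE-Mech-like cells of Day 12, and at Day 14 between 31.0% (mesoderm-like) and 43.0% (Epi-like). In these comparisons between 49.0% and 67.7% of all genes had an unadjusted p under 0.05, and DESeq2 called between 3525 and 6321 genes. Trophoblast-like cells held NRN1 at 0.626 to 2.77 CPM in the 11 libraries, with wild-type values of 0.708 to 2.77 CPM. The widest difference was in ExE-Mech-like cells of Day 14, lower by 2.74 ± 0.90 (log2) with an adjusted p of 0.0147 by edgeR. Epi-like cells of Day 14 were higher by 2.00 ± 0.76 (edgeR adjusted p = 0.0276), a mean over genotypes that lay at 1.80 and 0 CPM in wild type and at 13.1 and 19.02 CPM in the mutant. Without the first wild-type library these 2 differences were -3.35 and 2.75 with adjusted p of 0.00412 and 0.00685 by edgeR. The share of all genes called in that setting was not counted. Wild-type Epi-like cells are then the 22 of the second library, with NRN1 at 0 CPM, so the Epi-like difference rests on the mutant libraries.

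Across the 48 sums of a type in a library, log2(CPM + 1) of NRN1 and of PCYT1B had a Pearson r of 0.703, and of 0.511 over the 46 sums without mutant Day 14 amnion-like cells. The sums share libraries, and sums of few cells rest on few UMIs, so the coefficient is a description. Of 10580 genes with at least 10 CPM in 1 of the sums, that closest to NRN1 was FGF11 (r = 0.858, and 0.745 without the mutant Day 14 amnion-like sums), an intracellular member of the fibroblast growth factor family, followed by CA3 (r = 0.830, and 0.623 without them), which encodes carbonic anhydrase III. Since the mutant Day 14 amnion-like sums entered the choice of these genes, their levels there restate that choice and are no separate evidence. FGF11 was at 32.3 and 43.9 CPM in the mutant amnion-like cells of Day 14 and at 0.906 and 0 CPM in wild type, and CA3 at 90.9 and 98.8 CPM and at 12.7 and 0 CPM. The other 3 of the 5 closest genes have no symbol in the sources used here, ENSMFAG00000042373 (r = 0.813) among them. For PCYT1B the closest was ENSMFAG00000039134 (r = 0.894, and 0.882 without the mutant Day 14 amnion-like sums). TM7SF2, a sterol reductase of cholesterol synthesis (r = 0.803, and 0.715 without those sums), and ITM2A, which encodes a membrane protein (r = 0.792, and 0.847 without them), ranked 3 and 4. Their levels in these cells, chosen in the same way, are likewise a description. TM7SF2 was at 151 and 128 CPM in mutant and at 24.5 and 12.8 CPM in wild-type amnion-like cells of Day 14, and ITM2A at 57.9 and 39.8 CPM and at 14.5 and 0 CPM.

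**Figure D5:**
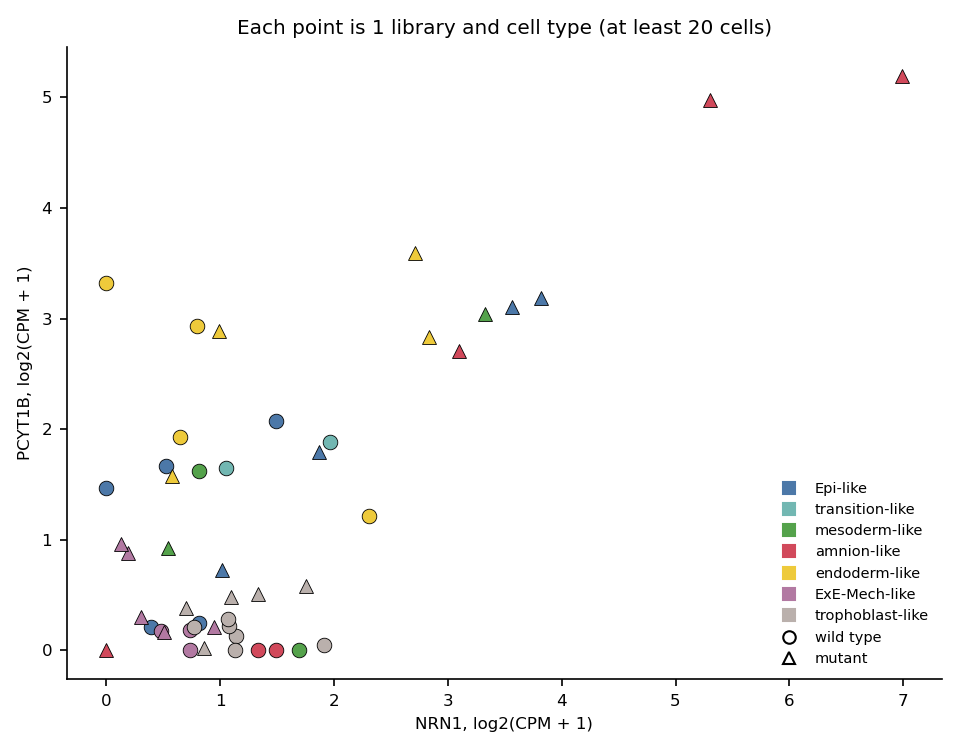
NRN1 (x axis) against PCYT1B (y axis), both as log2(CPM + 1), 1 point for each of the 48 sums of a cell type in a library with at least 20 cells, circles for wild type and triangles for mutant. The 2 mutant amnion-like sums of Day 14 stand alone at the upper right, and the next highest sum for PCYT1B is the endoderm-like one of the second mutant Day 12 library, at 11.1 CPM.

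Genes near the members in function were read from lists, since none of the 39 genes of the CDP-choline, GPI anchor synthesis and AMPA receptor lists that had been set could be matched to a gene identifier in the sources used here. Instead, 9 genes of GPI-anchored proteins and 14 genes of glycerolipid and phospholipid metabolism with an identifier were taken. Their identifiers come from the study's tables of genes that differ, so they are no independent sample of these pathways, a share or median above that of all genes can follow from this choice, and the values below are a description. In Day 14 amnion-like cells, where 0.576% of all 9028 genes tested were called, 0 of the 9 GPI-anchored and 0 of the 13 lipid genes tested passed the false discovery rate of 1% with edgeR, 3 and 8 had an unadjusted p under 0.05, and DESeq2 called 1 of each. Of all 9028 genes, 21.6% had an unadjusted p under 0.05 and DESeq2 called 155. Over all genes 52 were called. That number was 8 and 5 without the first or second wild-type library, and 7 and 36 without the first or second mutant library. With the batch number of the labels as a replicate block it was 90. The median log2 fold change was 0.83 for the GPI-anchored genes and 0.36 for the lipid genes, beside 0.03 over all genes tested. Of the GPI-anchored genes 5 were above 0 and 4 below, 1 of the latter being LYPD1, which is also an AM-2 marker. CD59, an inhibitor of complement like CD55, was nearest to the threshold (1.98 ± 0.38, edgeR adjusted p = 0.0149). Of the lipid genes 7 were above 0 and 6 below. SCD, the stearoyl-CoA desaturase, was at 1.74 ± 0.33 (edgeR adjusted p = 0.0155) and PLTP, a phospholipid transfer protein, at 1.56 ± 0.40 (0.0457), while GPAT3, an acyltransferase of glycerolipid synthesis, was at -2.27 ± 0.49 (0.0240) and ATP8A1, a phospholipid flippase, at -2.87 ± 0.63 (0.0249).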

How the data were processed

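Droplet 3′ RNA libraries of cultured cynomolgus embryos were analysed from 2 matrices that the authors deposited with UMIs per gene and cell. The uncorrected one holds raw counts and the other expected counts, whole numbers left after the authors subtracted free RNA with SoupX, which took between 0.196% and 8.77% of a library. Per the study's methods and the submitters' processing notes, reads were counted with Cell Ranger 3.1.0 on an Ensembl annotation of the cynomolgus genome, genes found in too few cells were dropped, and cells were filtered on mitochondrial share and genes detected. The 3′ tags of a gene are its only reads, so an error of annotation at a 3′ end would lower its counts. Corrected counts of 33330 cells and 19367 genes were used here, and 209 cells found only in the uncorrected matrix were left out.

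The members and the gene lists were chosen with earlier results of these data known. Cells were clustered per day across libraries (Seurat 5.3.0, uwot 0.2.3, 5000 variable features, 30 dimensions, resolution 0.8) without the members and the listed genes, and a cluster was named from marker lists with at least 3 detected markers. This naming rule was rewritten after cluster names, but not member values, had been seen. No doublet caller was run, and an alternative left out cells above the 95th percentile of UMIs. UMIs were summed per library and type with at least 5 cells and tested with edgeR 4.0.16 (R 4.3.3) by its quasi-likelihood test, with TMM scaling and its filter on low counts, in 1 fit per type over all genotype and day groups. Types were compared with trophoblast-like cells per day with the library as a block. P-values were adjusted by Benjamini-Hochberg over all genes tested and called at a false discovery rate of 1%, and they measure only the spread between these libraries. Standard errors were derived from the F statistic. Exact binomial intervals (95%) and the limit of 3 counts for a 0 cover counting error only. The genes named beside the members are the 5 with the highest Pearson r for each, those without a symbol included, and list genes are named by their p. The fits were tested on simulated data, with a log2 change of 2 set in 200 genes at Day 14. They recovered 45% of these in amnion-like, 38.5% in ExE-Mech-like, 35% in Epi-like and 22% in trophoblast-like cells. A gene that was not called may therefore still differ. Alternatives were uncorrected counts, no filter on low counts, DESeq2 1.42.0, at least 20 cells, other clusterings, a replicate block and each library left out, and, added after seeing the data, the amnion-like cells left out of the type fit, AM-1-like cells alone, cells without trophoblast marker UMIs and the gene lists used. Symbols were matched for 1019 genes. Gene positions and sequences were not used here.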

Additional observations from a re-analysis of the deposited data

Results flagged for a closer look

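Cells of clusters that took no name were outside every comparison, and, summed, they held both genes above the wild-type level in the Day 14 mutant libraries. NRN1 was at 5.18 and 4.65 CPM in unnamed cells of mutant replicates 1 and 2, against 1.54 and 1.91 CPM in wild type. PCYT1B was at 7.11 and 7.54 CPM in the mutant, against 2.06 and 0 CPM in wild type. These differences were not tested. Of the unnamed cells, 410 and 158 in the mutant and 139 and 10 in wild type came from clusters unnamed among all cells, with trophoblast markers summing to 7253 and 9386 CPM in the mutant and to 8034 and 13501 CPM in wild type. In those cells PCYT1B was at 7.45 and 6.99 CPM in the mutant and at 2.50 and 0 CPM in wild type, whereas NRN1 was at 4.64 and 1.64 CPM in the mutant and at 1.71 and 2.40 CPM in wild type, so that its second mutant library lay below both wild-type ones. In the cells unnamed within the epiblast lineage (81 and 24 in the mutant, 46 and 26 in wild type), NRN1 was at 9.80 and 21.0 CPM in the mutant and at 0.944 and 1.59 CPM in wild type, and PCYT1B at 4.2 and 10.5 CPM and at 0.472 and 0 CPM.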

How the results depend on the processing

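Of 51 tested results under 619 alternatives, 581 kept their direction and side of the threshold, 6 lost a call, 7 gained one and 25 changed direction, each of these for a value that passed the threshold neither before nor after. Values below without a unit are log2 fold changes. The mean PCYT1B level of mutant Day 14 amnion-like cells moved from 33.1 CPM to 25.2 CPM at cluster resolution 1.2, to 39.4 CPM in cells without trophoblast marker UMIs and to 21.5 CPM in AM-1-like cells alone. Without the filter on low counts NRN1 passed in mutant against wild-type Epi-like cells at Day 14 (3.17) and Day 12 (4.49) and was lower in ExE-Mech-like than in trophoblast-like cells of Day 14 (-2.78). The share of all genes called without the filter was not counted for these comparisons, and in amnion-like cells of Day 14 the calls rose without it, as given below. With DESeq2, PCYT1B passed against trophoblast-like cells of Day 12 in mesoderm-like (2.61) and amnion-like cells (2.89). DESeq2 called 5139 and 4273 of all 10739 genes in either direction in these 2 comparisons. At Day 14 its calls ended at resolution 1.2 in transition-like (3.98) and mesoderm-like cells (2.96), and with neighbours on principal components in mesoderm-like cells (2.21). Directions turned at resolution 1.2 for NRN1 in ExE-Mech-like cells, mutant against wild type at Day 14 (0.74) and that effect minus the one of Day 12 (1.74), and for the same difference of effects of PCYT1B in trophoblast-like cells (0.055, and 0.26 with neighbours on principal components). Against trophoblast-like cells they turned for PCYT1B at Day 10 in mesoderm-like cells (2.36 with DESeq2, 1.68 with neighbours on principal components) and amnion-like cells (2.07 with DESeq2). At Day 14 they turned for PCYT1B in ExE-Mech-like cells (-0.48 with neighbours on principal components) and for NRN1 in mesoderm-like cells, which lay near 0 (0.10 with DESeq2 size factors, 0.33 with DESeq2, 0.025 with uncorrected counts, 0.73 with neighbours on principal components, 0.14 without cells of most UMIs).

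With each library left out in turn, values against trophoblast-like cells ran from 3.68 to 3.99 for PCYT1B in transition-like, 2.87 to 3.70 in mesoderm-like and -0.069 to 0.87 in ExE-Mech-like cells of Day 14, and for NRN1 from 1.46 to 2.75 in Epi-like, -0.20 to 1.12 in mesoderm-like and -3.35 to -1.87 in ExE-Mech-like cells. PCYT1B in endoderm-like cells of Day 10 was at 5.93 without the second wild-type library and did not pass the filter on low counts without either of the others. The mutant effect on PCYT1B ran from -4.19 to 1.49 in amnion-like cells of Day 12, from which nothing is read, and from -0.48 to 2.09 in endoderm-like cells of Day 14. The difference of effects between the days ran from -4.77 to 4.87 for NRN1 in Epi-like cells, and for PCYT1B from -6.16 to 0.42 in Epi-like, -5.63 to 0.47 in endoderm-like and -2.03 to 0.29 in trophoblast-like cells. The genes called in amnion-like cells of Day 14 ran from 5 to 36, and those of each gene list from 0 to 1.

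In amnion-like cells of Day 14 the 52 genes called became 523 with no filter, 155 with DESeq2, 7 with at least 20 cells, 5 at resolution 1.2 and 10 with neighbours on principal components, and of the GPI-anchored and lipid genes 3 and 4 were called with no filter and 1 and 1 with DESeq2. The replicate numbers are batch numbers that the design text counts within each genotype, and whether a number marks the same batch in both is not clear from the sources used here. Deviations of same-numbered libraries correlated between -0.0859 and 0.139 within types, over 0.1 in ExE-Mech-like (0.139) and trophoblast-like cells (0.126) of Day 14, so they were not taken as pairs. A replicate block changed 0 of 17 tested calls of the members and gave 90 called genes in amnion-like cells. The cause of these changes was not tested. Few cells limit the Day 14 sums, where a count of 0 allows up to 2.72 and 19.2 CPM in wild-type amnion-like cells and up to 28.3 and 22.5 CPM in mutant transition-like cells, and mutant Day 10 and wild-type Day 12, with 1 library each for amnion-like sums at those days, take their spread from the other groups.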
